A study of Homo sapiens with 9 samples.

Results

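Origin licensing and fork progression were followed through 54 genes, each matched by its symbol in a table of 58929 genes, and all 54 passed the filter on low counts that left 16065 genes for testing. They fell by known role into 10 groups, from the origin recognition complex to the factors that restore chromatin behind the fork. The cells were FaDu, a line from a hypopharyngeal squamous cell carcinoma, for which the labels name no engineered allele. There were 3 groups of 3 libraries: YKL-5-124 at 250 nM, samuraciclib at 250 nM, and DMSO, the vehicle. Both compounds inhibit CDK7, YKL-5-124 by a covalent bond and samuraciclib by competing with ATP. Treatment lasted 48 h by the treatment protocol and 72 h by the series design, the same for all groups in either case, and a single line and a single dose limit the reach of the model. Levels are given in CPM, counts divided by the size of the library in megacounts, with library sizes scaled by the trimmed mean of M-values (TMM), and the values of the 3 libraries of a group follow their replicate numbers. A gene was termed upregulated or downregulated if edgeR's quasi-likelihood test gave it an adjusted p (Benjamini-Hochberg, over the 16065 genes) under 0.05 together with a log2 fold change above 0.5 or under -0.5. Values with ± and no unit are log2 fold changes with their SE.

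Before a chromosome is copied, the origin recognition complex (ORC) marks origins, and CDC6 and CDT1 load the MCM2-7 ring there in an inactive form. At the start of S phase the kinase CDC7-DBF4 and cyclin-dependent kinases let CDC45 and GINS join the ring, which then unwinds DNA ahead of polymerases held by the sliding clamp PCNA. CDK7 is the kinase that activates other cyclin-dependent kinases and also phosphorylates RNA polymerase II, and many replication genes are transcribed in late G1 under E2F factors.

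The libraries held 18096180 to 28018126 counts. The markers of squamous epithelium summed to 5689 to 6119 CPM with YKL-5-124, 6318 to 6624 CPM with samuraciclib and 5479 to 5807 CPM with DMSO, with all 9 detected, while 5 of 6 fibroblast, 4 of 5 leukocyte and 2 of 4 endothelial markers were under 1 CPM in every library. The endothelial marker CDH5 stood at 18.7 to 31.0 CPM, and COL1A1, CD14 and VWF at 0.548 to 5.96 CPM. Single squamous markers moved in opposite directions. KRT5 had 1763 to 1927 CPM with YKL-5-124 and 2519 to 2694 CPM with DMSO, and CDH1 371 to 385 and 183 to 199 CPM. CDK7 itself was at -0.15 ± 0.058 with YKL-5-124 and -0.049 ± 0.058 with samuraciclib, and since both compounds act on the protein its level does not check the labels. In 1 library of each group, the second with YKL-5-124, the second with samuraciclib and the third with DMSO, the 7SL RNA gene RN7SL2 was low (56.3, 24.9 and 59.3 CPM, where the remaining 6 libraries had 696 to 981 CPM), so counts are given without these 3 libraries as well. MKI67, a marker of cycling cells, was lower in both treated groups too, at -0.45 ± 0.058 with YKL-5-124 and -0.33 ± 0.058 with samuraciclib, and its part in the results was not tested. In bulk RNA, fewer cells in a phase of the cycle and less RNA per cell cannot be told apart.

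With YKL-5-124 against DMSO, 18 of the 54 genes were downregulated (33.3%) and none was upregulated, while over all genes tested 9.93% were downregulated and 11.9% upregulated. The median of the 54 was -0.34, between -0.97 for TIPIN and 0.37 for RECQL4, and that of all genes was 0.014. At an adjusted p below 0.05 without a fold threshold, edgeR's test found 44 lower and 3 higher, where 25.2% of all genes were lower and 24.1% higher by the same rule. At an unadjusted p below 0.05 in edgeR's test the counts were 45 and 3, for which the share over all genes was not computed. With DESeq2 none was upregulated either. All 3 YKL-5-124 libraries lay below all 3 DMSO libraries for 43 of the genes, and above them for ORC4, DBF4 and RECQL4, while over all genes 28.4% lay wholly below DMSO and 28.4% wholly above it. Without the 3 libraries low in RN7SL2, the same 18 genes were downregulated and the median was -0.39. Scaling by library size alone moved the median of all genes to 0.14 and that of the 54 to -0.21. A change of scale shifts all genes nearly alike, so the distance between the medians, -0.36 with either scale, could not change and tests nothing. With library size alone 13 genes were downregulated, without CDC7, CLSPN, LIG1, MCM5 and UHRF1, and a filter at a mean count of 50 left 15, without CDC7, CLSPN and UHRF1.

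Samuraciclib, set against the same DMSO libraries, downregulated 21 of the 54 genes (38.9%) and upregulated none, where 9.55% of all genes were downregulated and 8.17% upregulated. Here the median was -0.39, from -1.19 for CDC45 to 0.19 for RECQL4, and that of all genes was 0.0012. An adjusted p below 0.05 alone was reached by 38 lower and 2 higher genes, RECQL4 and FEN1, where 23.1% of all genes were lower and 21% higher. An unadjusted p below 0.05 was reached by 41 lower and 3 higher, again without a share over all genes, and by DESeq2 none was upregulated. The libraries lay wholly below DMSO for 41 genes and wholly above it for 4, where the shares of all genes were 27.3% and 25.6%. Without the 3 libraries low in RN7SL2 the count was again 21, of which 20 were among the first 21, with UHRF1 (-0.48) giving way to RNASEH2A (-0.95). Library size alone as the scale left 13 downregulated, without GINS1, MCM3, MCM4, MCM6, PCNA, POLD3, RFC4 and UHRF1, and the filter at a mean count of 50 left 18, without MCM3, MCM4 and RFC4. The median of the 54 lay -0.39 from that of all genes under both scalings, a distance that a change of scale could not alter.

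Added up, the 54 genes took 0.485%, 0.488% and 0.490% of the counts of the YKL-5-124 libraries and 0.481%, 0.473% and 0.486% of those of samuraciclib, against 0.621%, 0.621% and 0.604% in DMSO. Neither treated group overlapped the vehicle. The summed level was 4667 ± 47.2 CPM with YKL-5-124 and 4815 ± 46.8 CPM with samuraciclib, against 6433 ± 62.4 CPM with DMSO (SD, n = 3 each), or 72.6% and 74.9% of the vehicle. As a share of DMSO the summed levels were lowest for fork protection (63.1% with YKL-5-124, 64.0% with samuraciclib) and for MCM2-7 (63.9% and 65.2%), and highest for Okazaki fragment maturation (93.1% and 97.5%). The sum of that last role was mostly FEN1, with 192 of 254 CPM in DMSO, and RNASEH2A gave 1.80 CPM. LIG1, of the same role, was lower by 35.2% with YKL-5-124 and 35.9% with samuraciclib.

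**Figure D1:**
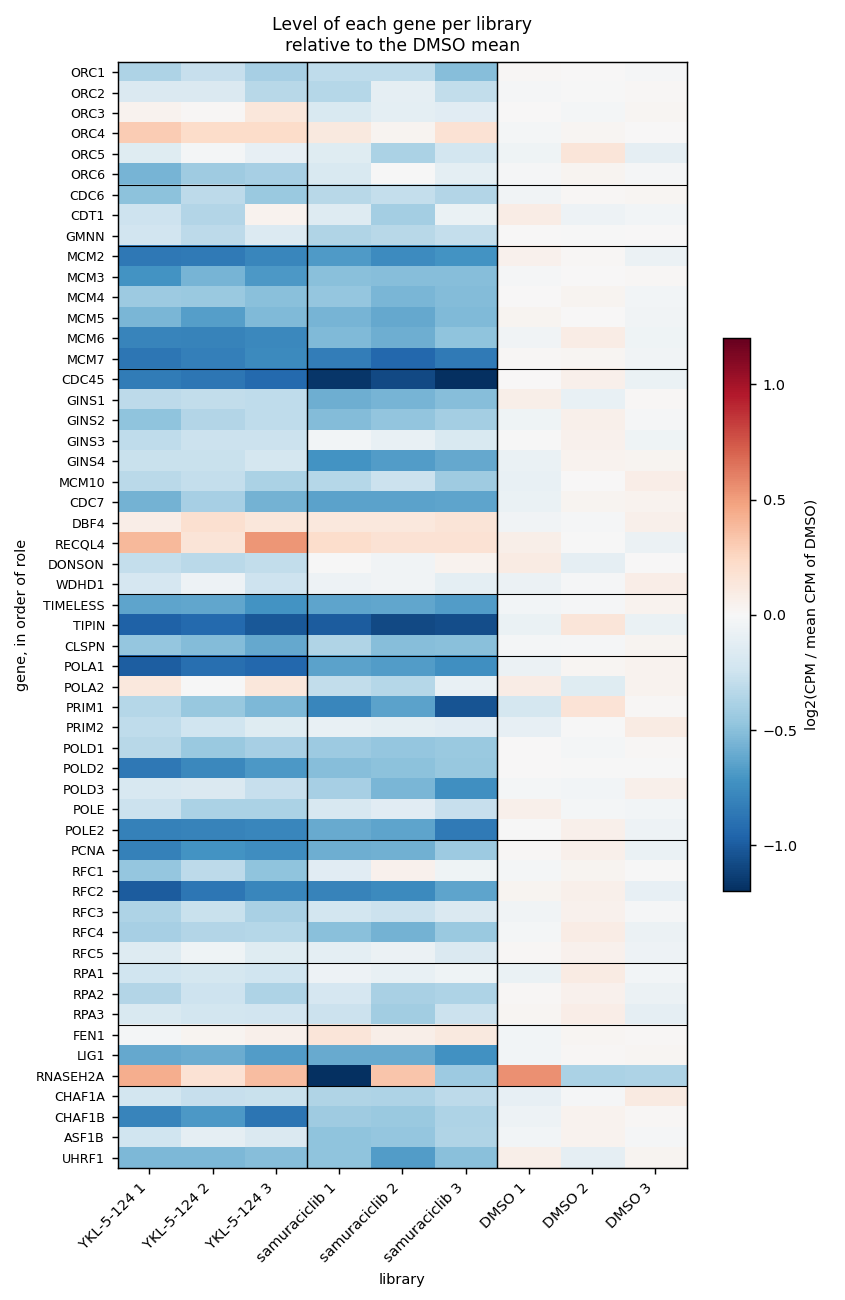
Level of each of the 54 genes in each of the 9 libraries as log2 of CPM over the mean CPM in DMSO, with genes ordered by role, black lines between roles and between groups, and values beyond the colour scale drawn in its end colour. The 3 YKL-5-124 and 3 samuraciclib columns are blue, lower than the DMSO mean, for most genes, among them TIPIN, CDC45, POLA1, RFC2 and the MCM2-7 genes, while ORC4, DBF4 and RECQL4 are red in all 6.

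The DNA before the starts of the 54 genes was read for the letters of E2F sites, and a role of E2F in the changes was not tested. Of the 54 genes, 46 had an entry among the 27305 RefSeq promoters (GRCh38.p14), without MCM4, MCM5, GINS4, RECQL4, DONSON, POLD3, RPA2 and RPA3. Within 250 bases before the start, on either strand, TTTCCCGC or TTTGGCGC stood in 12 of the 46 (26.1%), in 1.96% of all promoters and in 3.14% of those of genes tested here. The letters without the first T, TTCCCGC or TTGGCGC, which every longer match contains, stood in 18 of 46 (39.1%), against 7.95% of all promoters and 12.5% of those of genes tested. Among genes downregulated by either inhibitor, 10 of 20 held a 7-letter match, and among the rest 8 of 26. A CCAAT box stood in 58.7% of the 46, 33.0% of all and 34.8% of tested genes' promoters, the letters CACGTG of an E-box in 13.0%, 6.49% and 9.07%, and TTTGAA, the letters of a cell cycle homology region, in 2.17%, 13.6% and 8.06%. A match of letters is a description and does not show that a factor binds there. The following stretches end at or shortly before the RefSeq start and are written 5′ to 3′ on the strand of the gene, with 7- and 8-letter E2F matches in capitals, read on either strand. POLA1 (chrX:24693723-24693872, plus strand), PCNA (chr20:5126627-5126776, minus strand), MCM6 (chr2:135876444-135876593, minus strand) and CDC7 (chr1:91500701-91500850, plus strand) were downregulated by both inhibitors. CDT1 (chr16:88803639-88803788, plus strand), downregulated by neither, is shown for its matches all the same. FEN1 (chr11:61792803-61792910, plus strand), also downregulated by neither, is shown for having none of the E2F letters searched, though it holds the E-box letters CACGTG 30 bases before the start. Other forms of an E2F site were not searched. The capitals that open the MCM6 stretch are the end of a match that begins before it.
POLA1: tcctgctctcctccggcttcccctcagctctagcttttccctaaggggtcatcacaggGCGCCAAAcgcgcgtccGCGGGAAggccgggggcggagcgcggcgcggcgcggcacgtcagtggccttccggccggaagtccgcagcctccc
PCNA: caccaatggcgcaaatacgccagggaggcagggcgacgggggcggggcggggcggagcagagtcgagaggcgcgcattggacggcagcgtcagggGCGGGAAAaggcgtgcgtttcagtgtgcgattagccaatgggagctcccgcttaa
MCM6: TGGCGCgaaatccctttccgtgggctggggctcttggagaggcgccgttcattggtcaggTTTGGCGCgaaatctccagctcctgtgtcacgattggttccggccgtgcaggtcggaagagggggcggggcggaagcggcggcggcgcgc
CDC7: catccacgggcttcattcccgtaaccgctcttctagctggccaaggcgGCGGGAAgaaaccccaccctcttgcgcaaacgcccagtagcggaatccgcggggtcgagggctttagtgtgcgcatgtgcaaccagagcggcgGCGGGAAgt
CDT1: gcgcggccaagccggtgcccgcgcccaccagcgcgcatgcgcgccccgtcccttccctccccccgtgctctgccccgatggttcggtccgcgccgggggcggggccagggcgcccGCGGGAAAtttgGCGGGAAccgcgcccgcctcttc
FEN1: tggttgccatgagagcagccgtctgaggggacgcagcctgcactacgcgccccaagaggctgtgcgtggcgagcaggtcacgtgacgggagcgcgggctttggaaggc
The match starts 137 and 120 bases before the start in POLA1, 59 in PCNA, 152 and 90 in MCM6, 102 and 9 in CDC7, and 35 and 23 in CDT1, counted from its base farthest from the start.

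None of the 6 genes of the origin recognition complex passed both thresholds with either inhibitor. The largest difference with YKL-5-124 was that of ORC6 (ENSG00000091651, chromosome 16, 46689643 to 46698394, GRCh38), the smallest subunit, which takes part in MCM loading. It had 88.4, 97.1 and 99.1 CPM with YKL-5-124 and 115, 129.98 and 120.1 CPM with samuraciclib, against 129, 133 and 129 CPM with DMSO. Only the YKL-5-124 libraries lay apart from the vehicle (-0.46 ± 0.055, adjusted p = 1.89e-06), while samuraciclib overlapped it (-0.10 ± 0.055, adjusted p = 0.15). ORC3, of the core of the complex, differed least with YKL-5-124. It had 34.1, 33.4 and 36.3 CPM with YKL-5-124 and 29.2, 30.4 and 30.2 CPM with samuraciclib, against 33.2, 32.5 and 33.6 CPM with DMSO (0.062 ± 0.062 and -0.15 ± 0.063). ORC1, the ATPase subunit that joins the complex in G1, was at -0.35 ± 0.061 with YKL-5-124 and -0.37 ± 0.062 with samuraciclib, and the core subunit ORC2 at -0.22 ± 0.076 and -0.24 ± 0.076, with an adjusted p below 0.05 in each of these. ORC5, another core subunit, was at -0.082 ± 0.093 and -0.24 ± 0.094. ORC4, also of the core, went the other way, with 43.2, 40.6 and 40.8 CPM with YKL-5-124 and 37.8, 35.7 and 39.4 CPM with samuraciclib, against 34.3, 35.5 and 34.9 CPM with DMSO. Every treated library lay above every vehicle library, at 0.25 ± 0.061 with YKL-5-124 (adjusted p = 0.00224) and 0.11 ± 0.061 with samuraciclib (adjusted p = 0.16). The medians of the complex were -0.15 with YKL-5-124 and -0.19 with samuraciclib.

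The MCM loading factors did not pass the fold threshold either. CDC6 (ENSG00000094804, chromosome 17, 40287633 to 40304657), the ATPase that joins ORC at origins, had 127, 144 and 132 CPM with YKL-5-124 and 143, 147 and 141 CPM with samuraciclib, against 174, 182 and 183 CPM with DMSO. No treated library reached the vehicle range (-0.42 ± 0.049, adjusted p = 1.55e-06, and -0.32 ± 0.049, adjusted p = 3.65e-05). CDT1, which brings MCM2-7 to the origin, had 71.7, 66.9 and 87.4 CPM with YKL-5-124 and 76.5, 64.1 and 80.5 CPM with samuraciclib, against 90.5, 81.5 and 83.4 CPM with DMSO. The third YKL-5-124 library lay inside the vehicle range, and neither difference reached an adjusted p below 0.05 (-0.18 ± 0.088 and -0.21 ± 0.088). GMNN, which encodes geminin, the inhibitor of CDT1, was at -0.24 ± 0.054 and -0.32 ± 0.055, so both the activator and the inhibitor of loading had log2 fold changes under 0.

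Nearly every gene of the helicase itself was downregulated. YKL-5-124 downregulated 5 and samuraciclib 6 of the 6 MCM2-7 genes, with medians of -0.72 and -0.55, and for all 6 every treated library lay below every DMSO library. MCM2 (ENSG00000073111, chromosome 3, 127598223 to 127622436) had 157, 158 and 165 CPM with YKL-5-124 and 178, 169 and 173 CPM with samuraciclib, against 295, 288 and 272 CPM with DMSO. This was the largest difference in the ring with YKL-5-124 (-0.83 ± 0.046, adjusted p = 8.67e-11), and samuraciclib gave -0.72 ± 0.046 (adjusted p = 1.11e-09). MCM7 had 278, 286 and 298 CPM with YKL-5-124 and 284, 263 and 281 CPM with samuraciclib, against 511, 513 and 491 CPM with DMSO, or -0.81 ± 0.048 and -0.87 ± 0.049. MCM4 (ENSG00000104738, chromosome 8, 47960185 to 47978160) differed least with YKL-5-124. It had 521, 518 and 496 CPM with YKL-5-124 and 509, 482 and 489 CPM with samuraciclib, against 704, 718 and 689 CPM with DMSO. Its change fell just short of the fold threshold with YKL-5-124 (-0.46 ± 0.046, adjusted p = 1.76e-07) and just passed it with samuraciclib (-0.51 ± 0.046, adjusted p = 6.40e-08). The remaining subunits lay at -0.65 (MCM3), -0.58 (MCM5) and -0.79 (MCM6) with YKL-5-124, and at -0.51, -0.57 and -0.53 with samuraciclib. With samuraciclib the call on MCM4 was lost without samuraciclib replicate 2 (-0.496) or DMSO replicate 2 (-0.499), and that on MCM6 without DMSO replicate 2 (-0.49). With library size alone as the scale, samuraciclib downregulated 3 of the 6, with MCM3 (-0.45), MCM4 (-0.45) and MCM6 (-0.47) short of the threshold, and YKL-5-124 4 of the 6, with MCM5 at -0.45. Under a filter at a mean count of 50, MCM3 (-0.488) and MCM4 (-0.493) fell short with samuraciclib.

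**Figure D2:**
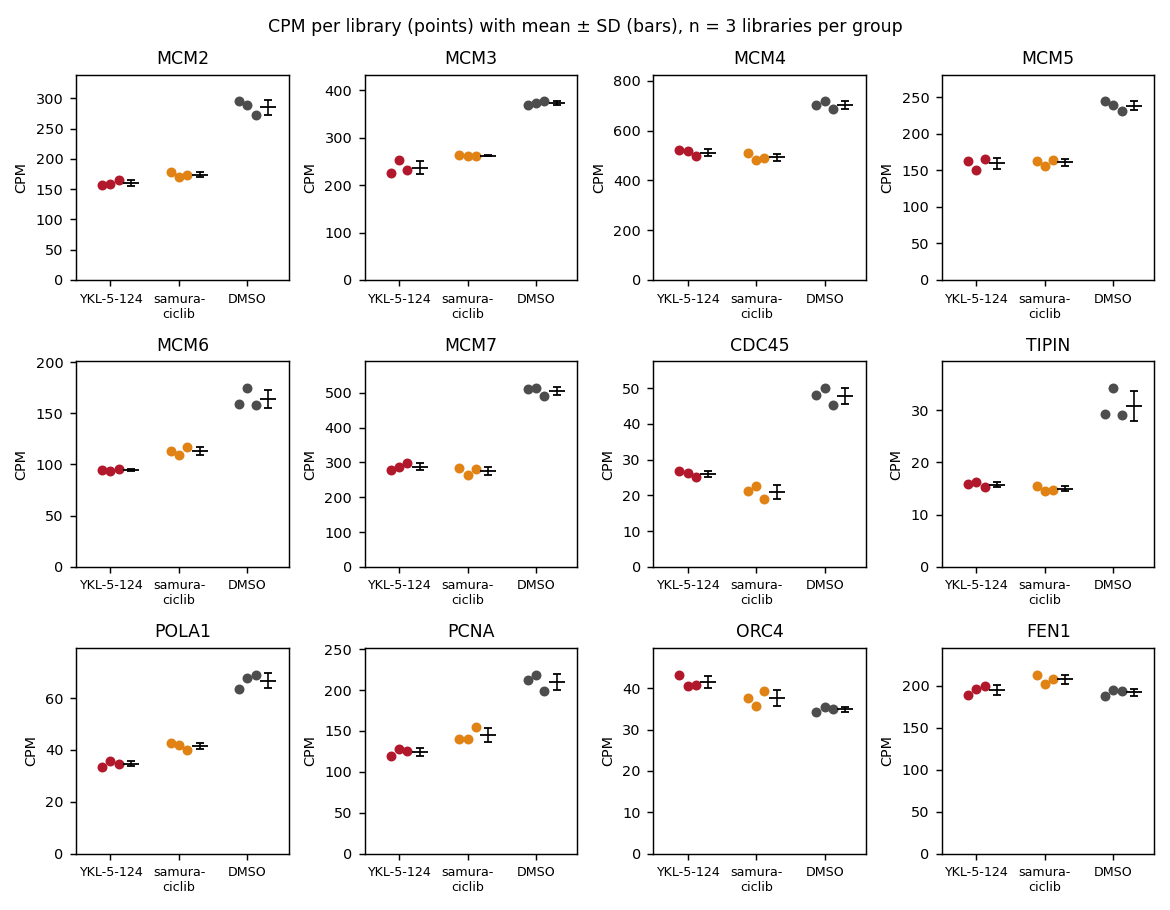
CPM of 12 genes in each library (points) with the mean ± SD of the 3 libraries of each group (bars), one panel a gene, each axis starting at 0. For the MCM2-7 genes, CDC45, TIPIN, POLA1 and PCNA all YKL-5-124 and samuraciclib points lie below the DMSO points, ORC4 lies above DMSO in both treated groups, and the FEN1 points of YKL-5-124 overlap those of DMSO.

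Among the 11 genes of helicase activation, YKL-5-124 downregulated 2 and samuraciclib 4. CDC45 (ENSG00000093009, chromosome 22, 19479459 to 19520612), which rides on the ring as part of the active helicase, had 26.7, 26.1 and 25.01 CPM with YKL-5-124 and 21.2, 22.6 and 18.9 CPM with samuraciclib, against 48.1, 49.96 and 45.4 CPM with DMSO. The vehicle libraries stood clear of both treated groups, at -0.88 ± 0.072 (adjusted p = 1.32e-08) and -1.19 ± 0.073 (adjusted p = 7.39e-10). With TIPIN, CDC45 was 1 of 2 genes of the 54 to pass a log2 fold change beyond 1 with samuraciclib, and none did with YKL-5-124. Of all 16065 genes, 374 were lower by that rule with samuraciclib and 434 with YKL-5-124. The kinase subunit CDC7 was downregulated, at -0.51 ± 0.057 with YKL-5-124 and -0.64 ± 0.058 with samuraciclib. Its partner DBF4, which gives CDC7 its activity in S phase, had 51.9, 55.98 and 53.95 CPM with YKL-5-124 and 53.7, 53.4 and 54.6 CPM with samuraciclib, against 47.6, 48.5 and 50.97 CPM with DMSO. All treated libraries were above the vehicle by a small margin (0.14 ± 0.054, adjusted p = 0.044, and 0.13 ± 0.054, adjusted p = 0.053), so the 2 subunits of this kinase stood on opposite sides of 0. The 4 genes of the GINS tetramer were at -0.30 (GINS1), -0.37 (GINS2), -0.27 (GINS3) and -0.25 (GINS4) with YKL-5-124. With samuraciclib GINS1 (-0.55 ± 0.053) and GINS4 (-0.67 ± 0.067) were downregulated, and GINS2 (-0.47 ± 0.058) and GINS3 (-0.10 ± 0.065) did not pass. MCM10, which helps to activate the loaded helicase, was at -0.33 ± 0.061 and -0.34 ± 0.061.

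RECQL4, a RecQ helicase that takes part in initiation, was the highest of the 54 genes in both comparisons with DMSO. It had 76.8, 65.3 and 84.99 CPM with YKL-5-124 and 67.9, 66.3 and 66.4 CPM with samuraciclib, against 61.5, 58.7 and 55.98 CPM with DMSO, or 0.37 ± 0.074 (adjusted p = 4.65e-04) and 0.19 ± 0.074 (adjusted p = 0.046), short of the fold threshold. WDHD1, which links the helicase to polymerase alpha, was at -0.17 ± 0.057 and -0.075 ± 0.056. DONSON, a scaffold for helicase activation, was at -0.30 ± 0.059 with YKL-5-124 and -0.00050 ± 0.058 with samuraciclib. The gene SON lies on the opposite strand over 61.5% of the DONSON span and has far more counts, and the strand setting of the counting was not stated. The call on CDC7 with YKL-5-124 was lost without YKL-5-124 replicate 1 (-0.48) or 3 (-0.48) and without DMSO replicate 2 (-0.49) or 3 (-0.49).

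The fork protection genes were downregulated throughout with YKL-5-124, 3 of 3, and in 2 of 3 with samuraciclib. TIPIN (ENSG00000075131, chromosome 15, 66336206 to 66386746) encodes the partner of TIMELESS in the complex that couples helicase and polymerase and steadies stalled forks. It had 15.8, 16.2 and 15.2 CPM with YKL-5-124 and 15.4, 14.5 and 14.8 CPM with samuraciclib, against 29.2, 34.2 and 29.1 CPM with DMSO. This was the largest difference of all 54 genes with YKL-5-124 (-0.97 ± 0.082, adjusted p = 2.26e-08), and with samuraciclib the level was lower by 51.6% (-1.05 ± 0.083, adjusted p = 1.41e-08). TIMELESS itself was downregulated by both compounds (-0.66 ± 0.048 and -0.64 ± 0.048). CLSPN, which encodes claspin, the adaptor through which ATR activates CHK1, had 39.1, 37.6 and 35.3 CPM with YKL-5-124 and 41.9, 37.9 and 38.03 CPM with samuraciclib, against 53.2, 53.5 and 55.1 CPM with DMSO. All treated libraries lay below the vehicle, and the fold threshold was passed with YKL-5-124 (-0.53 ± 0.061, adjusted p = 1.12e-06) but not with samuraciclib (-0.46 ± 0.061, adjusted p = 7.81e-06). These 2 calls turned on single libraries, at -0.49 with YKL-5-124 without its replicate 3, and at -0.51, past the threshold, with samuraciclib without its replicate 1.

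**Figure D3:**
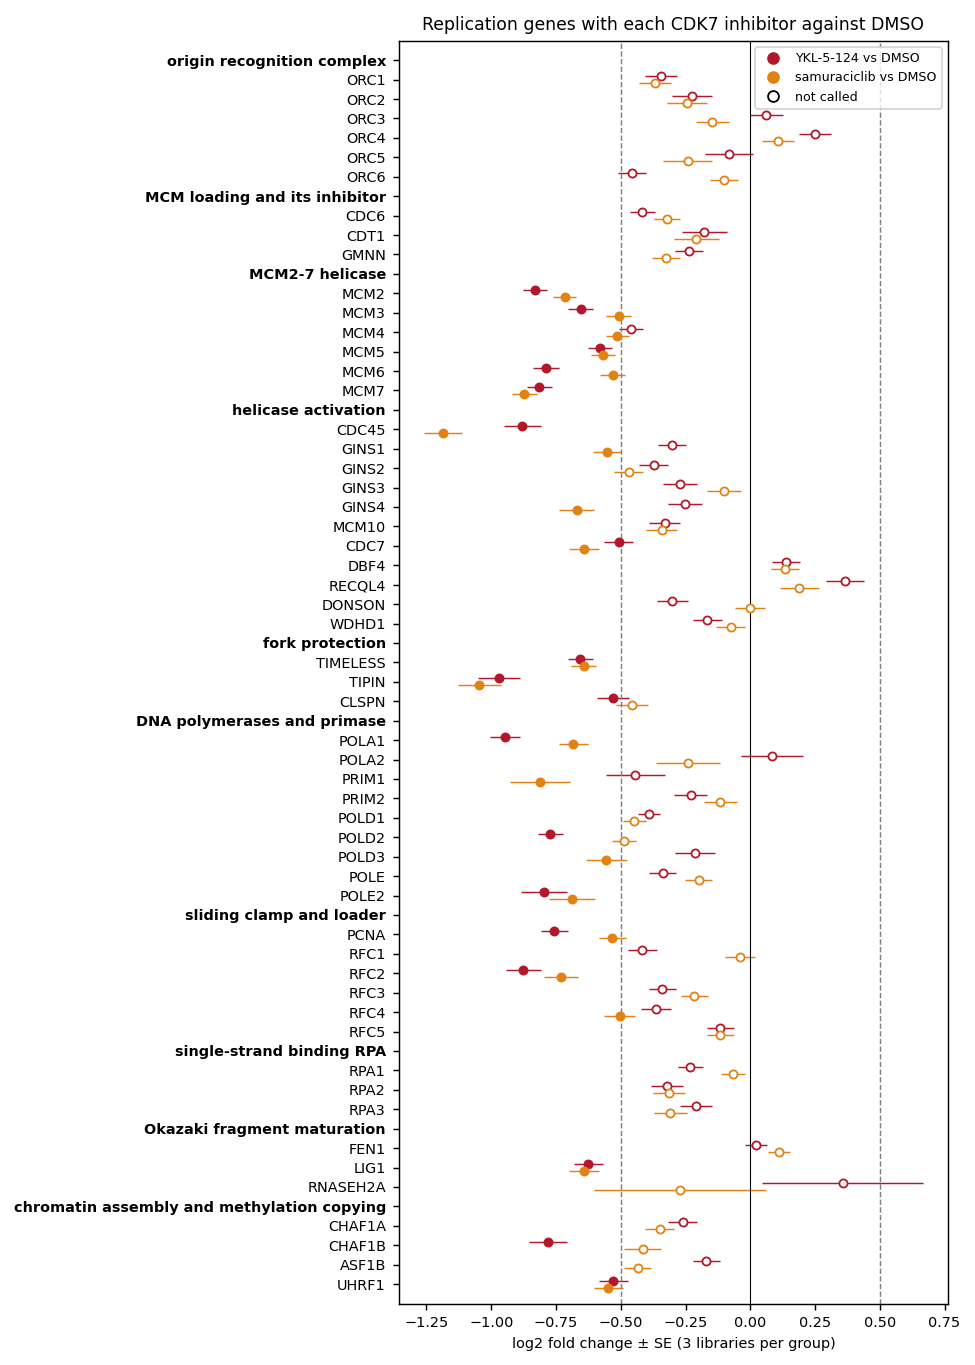
Log2 fold change ± SE of each of the 54 genes, by role, with YKL-5-124 (red) and samuraciclib (orange) against the same 3 DMSO libraries, filled where a gene was downregulated, with dashed lines at 0.5 either way. Filled points cluster in MCM2-7 and fork protection, TIPIN and CDC45 lie farthest to the left, and no filled point lies to the right of 0.

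Polymerases and primase were split by subunit, with 3 of 9 genes downregulated by YKL-5-124 and 4 of 9 by samuraciclib. POLA1 (ENSG00000101868, chromosome X, 24693919 to 24996986), the catalytic subunit of polymerase alpha, which starts each new strand, had 33.6, 35.6 and 34.7 CPM with YKL-5-124 and 42.7, 41.9 and 40.1 CPM with samuraciclib, against 63.5, 67.9 and 68.9 CPM with DMSO. Both treated groups lay below the vehicle and did not overlap each other (-0.95 ± 0.057, adjusted p = 2.43e-10, and -0.68 ± 0.056, adjusted p = 2.34e-08). POLA2, the accessory subunit of the same enzyme, differed least in the group with YKL-5-124. It had 7.75, 7.05 and 7.78 CPM with YKL-5-124 and 5.76, 5.61 and 6.68 CPM with samuraciclib, against 7.55, 6.39 and 7.31 CPM with DMSO. Its treated libraries overlapped those of the vehicle (0.083 ± 0.12 and -0.24 ± 0.12), and another protein-coding gene model on the same strand covers 99.6% of its span, with 2.97% of its counts. The primase that makes the RNA primer stood at -0.44 ± 0.11 for its catalytic subunit PRIM1 and -0.23 ± 0.065 for PRIM2 with YKL-5-124. With samuraciclib PRIM1 was downregulated (-0.81 ± 0.12) and PRIM2 was at -0.12 ± 0.064.

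Of polymerase delta, which copies the lagging strand, POLD2 was downregulated by YKL-5-124, with 156, 166 and 175 CPM, and stood at 199, 201 and 207 CPM with samuraciclib and 285, 283 and 283 CPM with DMSO. The 3 groups were fully separated, at -0.77 ± 0.047 with YKL-5-124 and -0.49 ± 0.047 with samuraciclib. The catalytic subunit POLD1 was at -0.39 ± 0.044 and -0.45 ± 0.044, and the accessory subunit POLD3 at -0.21 ± 0.077 with YKL-5-124 and, downregulated, -0.56 ± 0.078 with samuraciclib. Of polymerase epsilon, which copies the leading strand, the accessory subunit POLE2 was downregulated by both (-0.80 ± 0.088 and -0.69 ± 0.087), and the catalytic subunit POLE was at -0.34 ± 0.052 and -0.20 ± 0.052. With YKL-5-124 the lowest log2 fold change was thus that of an accessory subunit in polymerases delta and epsilon and of the catalytic subunit in polymerase alpha. Without DMSO replicate 1, PRIM1 passed the threshold with YKL-5-124 (-0.53), and without samuraciclib replicate 3, POLD2 passed it with samuraciclib (-0.502) and POLD3 no longer did (-0.47).

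PCNA (ENSG00000132646, chromosome 20, 5114953 to 5126626), the ring that tethers polymerases to DNA, was downregulated by both compounds. Its level was 119, 128 and 125 CPM with YKL-5-124 and 139.5, 141 and 155 CPM with samuraciclib, against 212, 218 and 199 CPM with DMSO, or -0.76 ± 0.052 (adjusted p = 1.28e-09) and -0.53 ± 0.051 (adjusted p = 1.72e-07). The 5 subunits of replication factor C, which opens and loads that ring, ranged from -0.88 to -0.12 with YKL-5-124 and from -0.73 to -0.040 with samuraciclib. RFC2 had 39.4, 43.05 and 45.8 CPM with YKL-5-124 and 45.2, 46.2 and 50.7 CPM with samuraciclib, against 80.4, 82.2 and 73.3 CPM with DMSO. Both treated groups lay far under the vehicle (-0.88 ± 0.066, adjusted p = 5.19e-09, and -0.73 ± 0.066, adjusted p = 7.68e-08). RFC5 had 77.9, 83.8 and 78.3 CPM with YKL-5-124 and 80.3, 82.7 and 77.1 CPM with samuraciclib, against 87.4, 89.8 and 83.3 CPM with DMSO, and neither difference reached an adjusted p below 0.05 (-0.12 ± 0.052 and -0.12 ± 0.052). RFC4 passed with samuraciclib only (-0.505 ± 0.058, with -0.36 ± 0.058 for YKL-5-124), a call that was lost without samuraciclib replicate 2 (-0.47) or DMSO replicate 2 (-0.46). RFC1, the large subunit, was at -0.42 ± 0.057 with YKL-5-124 and -0.040 ± 0.056 with samuraciclib, and RFC3 at -0.34 ± 0.052 and -0.22 ± 0.052.

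The trimer RPA, which coats single-stranded DNA, had no downregulated subunit. RPA2 had 49.1, 52.6 and 48.4 CPM with YKL-5-124 and 54.6, 47.8 and 48.5 CPM with samuraciclib, against 63.1, 65.03 and 59.7 CPM with DMSO. The treated libraries lay under the vehicle by about the same margin (-0.32 ± 0.062 and -0.31 ± 0.062). RPA3 had 44.8, 43.7 and 43.4 CPM with YKL-5-124 and 42.6, 38.1 and 42.5 CPM with samuraciclib, against 51.7, 53.7 and 47.4 CPM with DMSO, without overlap (-0.21 ± 0.063 and -0.31 ± 0.064). The gene UMAD1 covers 94.9% of the RPA3 span on the opposite strand, with 30.0% of its counts. RPA1, the largest subunit, was at -0.23 ± 0.048 with YKL-5-124, where the groups did not overlap, and -0.066 ± 0.047 with samuraciclib, where they did.

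Of the 3 genes of Okazaki fragment maturation, each compound downregulated 1. FEN1 (ENSG00000168496, chromosome 11, 61792637 to 61797244), the nuclease that trims the flap at the end of each fragment, had 189, 196 and 200.4 CPM with YKL-5-124 and 213, 202 and 208 CPM with samuraciclib, against 187, 196 and 194 CPM with DMSO. YKL-5-124 overlapped the vehicle (0.023 ± 0.044, 95% interval -0.069 to 0.11) and samuraciclib lay slightly above it (0.11 ± 0.044, adjusted p = 0.047), while FADS2 on the same strand covers 92.6% of the FEN1 span with 15.6% of its counts. LIG1, the ligase that seals the fragments, had 39.1, 39.4 and 37.6 CPM with YKL-5-124 and 39.4, 39.4 and 36.03 CPM with samuraciclib, against 58.4, 60.1 and 60.5 CPM with DMSO. It was downregulated by both to about the same degree (-0.63 ± 0.057, adjusted p = 5.30e-08, and -0.64 ± 0.057, adjusted p = 5.91e-08). RNASEH2A, the catalytic subunit of RNase H2, had only 2.45, 2.04 and 2.34 CPM with YKL-5-124 and 0.749, 2.28 and 1.34 CPM with samuraciclib, against 2.63, 1.38 and 1.39 CPM with DMSO. With a mean of 38.7 counts per library, and a span wholly inside that of HOOK2 on the opposite strand, its differences (0.36 ± 0.31 and -0.27 ± 0.33) were within the scatter of the libraries.

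Behind the fork, chromatin assembly and the copying of DNA methylation held 2 downregulated genes of 4 with YKL-5-124 and 1 with samuraciclib. CHAF1B (ENSG00000159259, chromosome 21, 36385378 to 36419015), a subunit of the histone chaperone CAF-1, had 18.3, 19.7 and 17.4 CPM with YKL-5-124 and 23.7, 23.3 and 24.7 CPM with samuraciclib, against 30.6, 32.8 and 32.1 CPM with DMSO. The 3 groups did not overlap, and the change passed the threshold with YKL-5-124 (-0.78 ± 0.073, adjusted p = 8.24e-08) and not with samuraciclib (-0.41 ± 0.072, adjusted p = 1.28e-04). ASF1B, the chaperone that hands histones to CAF-1, had 82.3, 89.9 and 85.9 CPM with YKL-5-124 and 69.5, 70.1 and 75.5 CPM with samuraciclib, against 94.6, 99.9 and 96.1 CPM with DMSO. The order was reversed here, with samuraciclib lower than YKL-5-124 (-0.17 ± 0.052 with YKL-5-124 and -0.43 ± 0.052 with samuraciclib). CHAF1A, the large subunit of CAF-1, was at -0.26 ± 0.056 and -0.35 ± 0.056. UHRF1, which reads hemimethylated DNA and recruits the maintenance methyltransferase, was downregulated by both compounds (-0.53 ± 0.056 and -0.55 ± 0.056), calls lost without DMSO replicate 1 with YKL-5-124 (-0.498) and without samuraciclib replicate 2 with samuraciclib (-0.492).

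Levels of different genes were compared after scaling to the length of the gene model. In DMSO, PCNA stood highest of the 54 at 142.7 CPM per kilobase (84.4 with YKL-5-124 and 98.6 with samuraciclib), followed by MCM7 at 115, and RNASEH2A lowest at 0.495. POLD2 stood 62.0-fold above POLA2 per kilobase in DMSO, 34.2-fold with YKL-5-124 and 52.1-fold with samuraciclib. Within MCM2-7 the per-kilobase levels spanned only 3.38-fold with YKL-5-124, 3.28-fold with samuraciclib and 3.54-fold with DMSO, with MCM5 lowest in each group, and the highest subunit was MCM4 with YKL-5-124, MCM3 with samuraciclib and MCM7 with DMSO. Within the origin recognition complex ORC6 was highest in each group, by 5.04-fold, 6.86-fold and 7.73-fold over the lowest subunit with YKL-5-124, samuraciclib and DMSO.

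**Figure D4:**
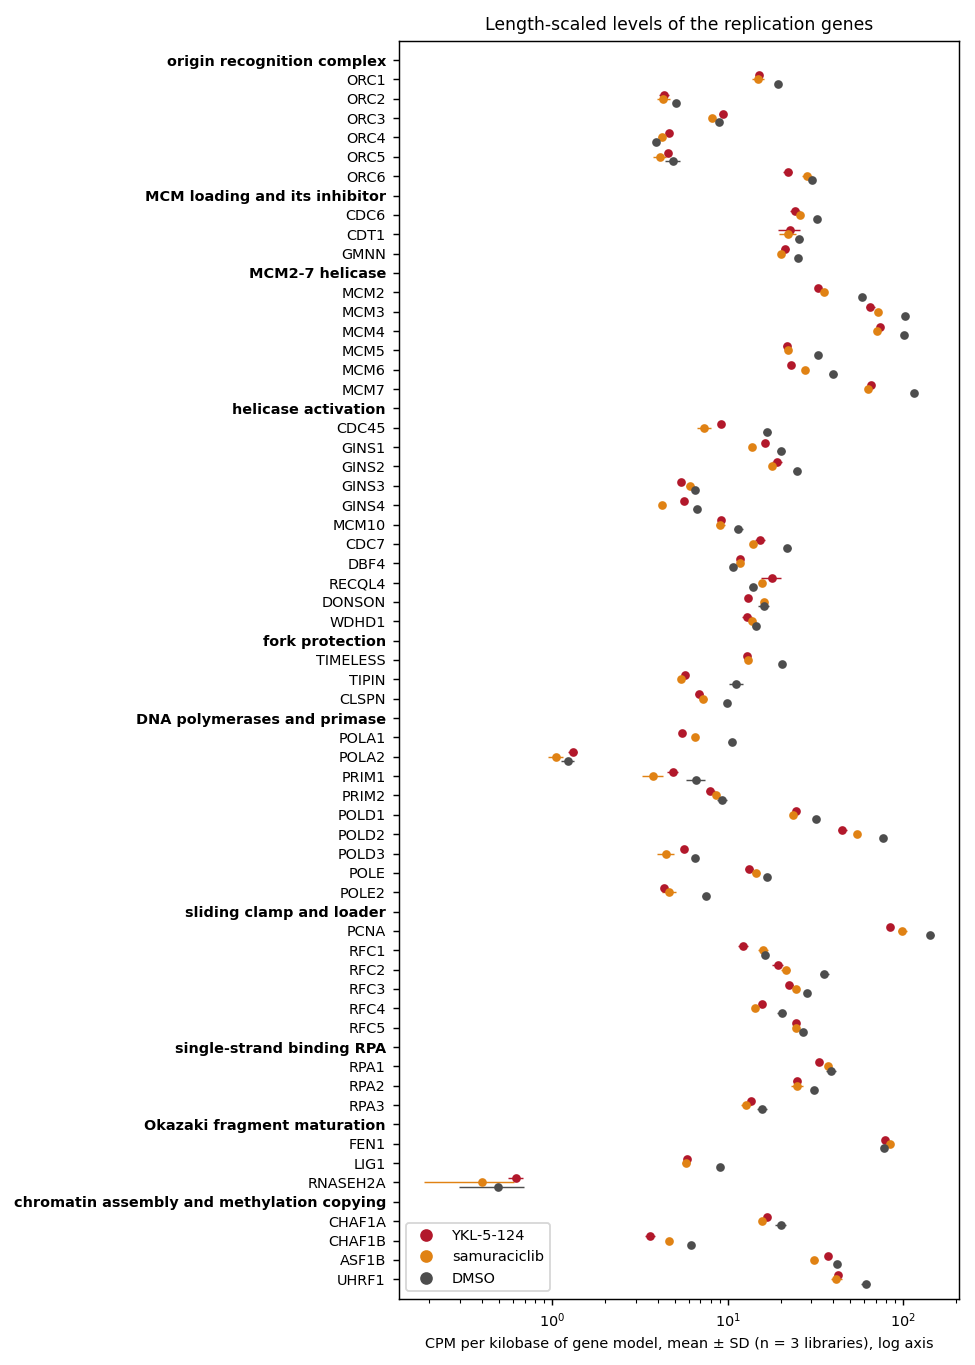
Level of the 54 genes in CPM per kilobase of gene model on a log axis, as mean ± SD of 3 libraries with YKL-5-124 (red), samuraciclib (orange) and DMSO (grey), by role. PCNA, the MCM2-7 genes, FEN1, POLD2 and UHRF1 lie to the right, POLA2 and RNASEH2A to the left, and the spread of RNASEH2A is wide with samuraciclib and DMSO.

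The compounds were then compared directly, 1 pair at the same dose and time, with p-values adjusted over all genes. None of the 54 genes passed both thresholds between YKL-5-124 and samuraciclib, where 2.46% of all genes were lower and 4.46% higher with YKL-5-124. The median difference was 0.014, as it was 0.0079 over all genes. The 95% interval lay within 0.5 either way for 48 of the genes, with a median half-width of 0.123, and reached beyond it for GINS4, POLA2, PRIM1, POLD3, RNASEH2A and CHAF1B, so that for these 6 a difference of that size was within the interval. At an adjusted p below 0.05 alone, edgeR's test found 10 of the 54 genes lower and 7 higher with YKL-5-124, where 13.2% of all genes were lower and 11.8% higher, so these counts are read as a description of single genes and not of the 54 as a set. At an unadjusted p below 0.05 the counts were 15 and 12, with no share over all genes computed, and DESeq2 passed none at both thresholds. The lower genes were RFC1 (-0.38 ± 0.057, adjusted p = 1.30e-04), CHAF1B (-0.37), ORC6 (-0.36), DONSON (-0.30), POLD2 (-0.28), POLA1 (-0.26), MCM6 (-0.26), PCNA (-0.22), RPA1 (-0.17) and MCM3 (-0.15). The 7 higher genes were GINS4 (0.42 ± 0.067, adjusted p = 2.20e-04), PRIM1 (0.37), POLD3 (0.34), CDC45 (0.31), ASF1B (0.26), GINS1 (0.25) and ORC3 (0.21).

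The values per library show the separation behind these differences. RFC1 had 79.7, 88.1 and 78.4 CPM with YKL-5-124 and 99.9, 114 and 106 CPM with samuraciclib, with 108, 112 and 109 CPM in DMSO, so that samuraciclib overlapped the vehicle and YKL-5-124 did not. GINS4 had 30.4, 30.4 and 31.7 CPM with YKL-5-124 and 22.3, 22.97 and 23.9 CPM with samuraciclib, with 34.7, 37.7 and 37.6 CPM in DMSO, and the 3 groups were apart, with samuraciclib lowest and DMSO highest. For 15 genes all YKL-5-124 libraries lay below all samuraciclib libraries, for 14 above, and for 25 the groups overlapped, where 19.2% of all genes lay wholly below and 19.5% wholly above. A gene that passed against DMSO with a single compound did not thereby differ between the compounds. MCM4 (0.054 ± 0.046), RFC4 (0.14 ± 0.059) and CLSPN (-0.073 ± 0.062) had no difference with an adjusted p below 0.05, while POLD2, CHAF1B, GINS1, GINS4, PRIM1 and POLD3 had one under the fold threshold. RNASEH2A had the widest interval (-0.041 to 1.30) and passed without samuraciclib replicate 2 (1.13, adjusted p = 0.020) and without the 3 libraries low in RN7SL2 (1.205, adjusted p = 0.016).

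**Figure D5:**
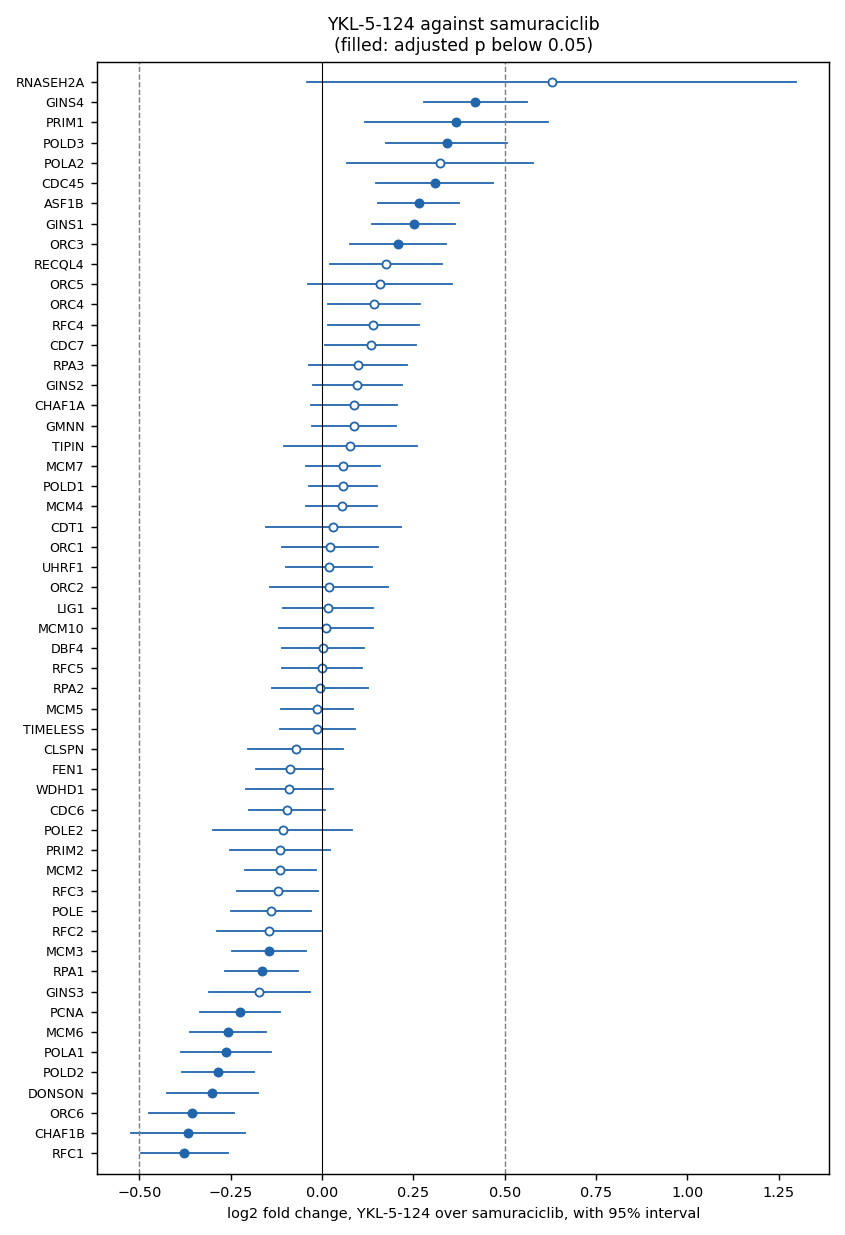
Log2 fold change of YKL-5-124 over samuraciclib with its 95% interval for the 54 genes, sorted, filled where the adjusted p was below 0.05, with dashed lines at 0.5 either way. Points run from RFC1 at -0.38 to GINS4 at 0.42, with RNASEH2A beyond at 0.63, and 48 of the 54 intervals stay between the dashed lines.

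A further 44 genes of replication, all tested, were read beside the 54. With YKL-5-124, 7 were downregulated and 3 upregulated (median -0.20), and with samuraciclib 5 were downregulated and 2 upregulated (median -0.18). Over all genes 9.93% were downregulated and 11.9% upregulated with YKL-5-124, and 9.55% and 8.17% with samuraciclib, so the counts among the 44 lie near the background and are given as a description of single genes. PCLAF, a factor that binds PCNA, was downregulated, at -1.05 ± 0.059 with YKL-5-124 (adjusted p = 1.06e-10) and -0.80 ± 0.058 with samuraciclib. ATAD5, which unloads PCNA, was downregulated by both (-0.90 ± 0.064 and -0.67 ± 0.063), as were the fork remodeller ZRANB3 (-0.93 ± 0.12 and -0.86 ± 0.12) and the nuclease DNA2 (-0.50 ± 0.073 and -0.56 ± 0.074). With YKL-5-124 the replication timing factor RIF1 (-0.65 ± 0.051) and the maintenance methyltransferase DNMT1 (-0.58 ± 0.046) were downregulated too, and with samuraciclib the primase-polymerase PRIMPOL (-0.64 ± 0.10). The upregulated genes included RAD9A and HUS1, subunits of the clamp RAD9-RAD1-HUS1 that signals replication stress. RAD9A had 56.7, 55.2 and 57.2 CPM with YKL-5-124 and 42.5, 55.7 and 45.8 CPM with samuraciclib, against 28.7, 23.4 and 27.01 CPM with DMSO (1.09 ± 0.088, adjusted p = 1.15e-08, and 0.86 ± 0.089, adjusted p = 3.62e-07). HUS1 had 36.997, 34.5 and 37.7 CPM with YKL-5-124 and 39.3, 37.01 and 39.9 CPM with samuraciclib, against 21.1, 23.2 and 19.6 CPM with DMSO (0.78 ± 0.074 and 0.87 ± 0.073). Treated and vehicle libraries did not overlap for either, whereas RAD1, the other subunit, was at -0.15 ± 0.050 and -0.18 ± 0.050. These 3 belong to 8 genes of replication stress signalling, of which 6 lay under 0 with each compound (medians -0.17 with YKL-5-124 and -0.20 with samuraciclib). Among those 6, ETAA1 was downregulated by YKL-5-124 (-0.67 ± 0.10) and stood at -0.29 ± 0.10 with samuraciclib. DBF4B, a second partner of CDC7, was upregulated by YKL-5-124 (0.56 ± 0.082) and stood at 0.19 ± 0.083 with samuraciclib. Between the compounds, POLD4, the small subunit of polymerase delta, was higher with YKL-5-124 (0.76 ± 0.14, adjusted p = 9.67e-04), and no other gene of the 44 passed. The POLD4 gene model (chromosome 11, 67350777 to 67356972, minus strand) lies wholly inside that of RAD9A (67317871 to 67398410, plus strand). With the strand setting not stated, the counts of these genes are uncertain, and other overlaps were not searched for the 44.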

How the data were processed

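FaDu cells were sampled in 3 biological replicates per group. Per the labels and the study's methods, mRNA was captured on poly-T beads and sequenced in read pairs, and HISAT2 placed the reads on GRCh38 before featureCounts 2.0.6 summed them over a GENCODE annotation, whose annotation release and strand setting are not given in the sources used here. The authors deposited unnormalized counts per gene, with another column, the gene length in bases, and gene positions. The study itself fitted DESeq2.

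Here 25347 genes without any count and others under filterByExpr of edgeR 4.0.16 were left out, and 16065 genes were fitted with glmQLFit and tested two-sided with glmQLFTest after TMM scaling, all 9 libraries entering the same fit without a covariate, with Benjamini-Hochberg adjustment over all genes. The biological coefficient of variation was 0.0631. The SE is the size of the log2 fold change over the square root of F, and the 95% intervals use the t distribution of that fit. Depth, 18096180 to 28018126 counts per library, set mean counts of the 54 genes between 38.7 and 12054 and a median coefficient of variation within groups of 4.25% with YKL-5-124, 3.81% with samuraciclib and 4.17% with DMSO. The members, their roles and the further genes were chosen with earlier results of these data known. Values per library are given for the members with the largest and the smallest change with YKL-5-124 in each role, and for MCM7, ORC4, RECQL4, POLD2, PCNA, RFC1, GINS4, RNASEH2A, RAD9A and HUS1, which were added after their values were seen. Of the further genes, at most 8 called by the smallest adjusted p per comparison and every upregulated one are named, and RAD1 and ETAA1 were added. Alternatives covered scaling, filters, thresholds, glmTreat, DESeq2 1.42.0, the groups fitted, the replicate number as a block and libraries left out. Promoters came from a RefSeq table. Software was R 4.3.3, limma 3.58.1 and Python 3.11.15 with pandas 2.3.3 and matplotlib 3.10.9.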

Additional observations from a re-analysis of the deposited data

How the results depend on the processing

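The count of downregulated genes was 18 with YKL-5-124 and 21 with samuraciclib under DESeq2 size factors, DESeq2, no filter and the replicate block. The block changed no count, and its medians were -0.34, -0.39 and 0.014 (YKL-5-124 against DMSO, samuraciclib against DMSO and YKL-5-124 against samuraciclib). Same-numbered libraries correlated at -0.056 to 0.173 in their deviations from the group means. Between the compounds each library correlated best with its own number (0.057, 0.173 and 0.094 for replicates 1, 2 and 3). Against DMSO only replicate 1 of each compound did so (0.063 with YKL-5-124 and 0.065 with samuraciclib). The replicate numbers thus do not pair the libraries across all 3 groups. The highest correlations joined the 3 libraries low in RN7SL2. They were 0.173 for YKL-5-124 2 with samuraciclib 2, 0.148 for YKL-5-124 2 with DMSO 3 and 0.146 for samuraciclib 2 with DMSO 3. A block by replicate number does not group these 3 libraries. With library size alone the median was -0.21 with YKL-5-124, 13 genes were downregulated at a median of -0.33 with samuraciclib, and the median between the compounds was 0.084, while the upregulated share of all calls was 72.7%, 57.1% and 79.5%, against 54.5%, 46.1% and 64.5% with TMM. With a mean count of at least 50 the median with YKL-5-124 was -0.31. An adjusted p below 0.05 alone gave 44 lower and 3 higher with YKL-5-124, 38 and 2 with samuraciclib, and 10 and 7 between the compounds. Beyond a log2 fold change of 1, 0 genes were lower with YKL-5-124 and 2 with samuraciclib, where 434 and 374 of all 16065 genes were lower. The counts at that threshold thus describe single genes and not the 54 as a set. Against 0.5, glmTreat gave 13 and 11, where 762 and 571 of all genes were lower. Without the 3 libraries low in RN7SL2 the median with YKL-5-124 was -0.39 and 1 gene, RNASEH2A, was higher with YKL-5-124 than with samuraciclib. Leaving out each library in turn gave 16 to 18 downregulated genes (medians -0.37 to -0.32) with YKL-5-124, 18 to 22 (medians -0.43 to -0.39) with samuraciclib, and 0 to 1 higher between the compounds (medians -0.017 to 0.022). The median between the compounds turned negative without YKL-5-124 replicate 2 (-0.012) and without samuraciclib replicate 3 (-0.017). The cause of these shifts was not tested. No called gene changed direction under any alternative run, and 2, 3 and 11 genes that were not called changed sign in the 3 comparisons. RNASEH2A, with 38.7 counts on average, was the member that depth limited most.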
